A study of Mus musculus with 2 samples.

Results

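The mouse Hox genes stand in 4 clusters, HoxA to HoxD, and the account here covers the array probes that lie in a window around each cluster. Probes were chosen by position only, on mouse genome build mm8: chromosome 6 from 52000000 to 52400000 (HoxA), chromosome 11 from 95900000 to 96500000 (HoxB), chromosome 15 from 102500000 to 103100000 (HoxC) and chromosome 2 from 74200000 to 74800000 (HoxD). The windows held 339 of the 90535 non-control spots of the array. Of these, 333 lay wholly inside 1 of 89 intervals, out of 23738 intervals in the deposited table, and the other 6 each crossed an interval's end. There were 24 intervals in HoxA, 20 in HoxB, 17 in HoxC and 28 in HoxD. An interval is taken to be 1 restriction fragment, as explained next.

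Each of 2 arrays set DNA of the paraventricular nucleus of the hypothalamus (PVH) against DNA of the arcuate nucleus (ARH), both from C57BL/6 mice of mixed sex at postnatal day 10, with 7 dissected pieces pooled per nucleus. The labels name no transgene, drug or other treatment of the mice and no sorting of cells from the dissected tissue. The dyes were swapped, with PVH in Cy5 on replicate 1 and in Cy3 on replicate 2. The sample names give ARH for the second nucleus, while the series title and a tissue tag give the ventromedial nucleus (VMH), so its identity is not settled.

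In methylation-specific amplification, SmaI first cuts the letters CCCGGG at sites that carry no methylation on the central CpG, and its ends are blunt. XmaI then cuts the methylated sites that remain and leaves cohesive ends, to which adaptors are joined for PCR. The assay is built to amplify fragments with methylated sites at both ends. The level is relative: fragment length, amplification and probe also enter it, and methylation of a fragment's interior is not read. Hox genes encode homeodomain transcription factors that give cells their position along the head-to-tail axis. They act in the hindbrain, spinal cord and trunk, and the forebrain, which includes the hypothalamus, develops without them. In such tissue the clusters are known for a broad covering of Polycomb repression over dense CpG islands, and such islands are mostly free of DNA methylation.

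The RefSeq gene table (assembly GRCm38.p6) lists 11 HoxA genes on chromosome 6, 10 HoxB genes on chromosome 11, 9 HoxC genes on chromosome 15 and 9 HoxD genes on chromosome 2, the chromosomes of the windows. In that table HoxA lies between Skap2 and Evx1, HoxB between Ttll6 and Skap1, HoxC between Calcoco1 and Smug1, and HoxD between Evx2 and Mtx2. That assembly is not mm8, so no interval was assigned to a gene, an exon, an intron or a promoter, and the windows are wider than the clusters. What the assay's site looks like in these genes can still be shown. RefSeq promoters, 250 bases before to 50 after a gene's start, were matched for 22 of the 39 Hox genes (24 promoters). Of these 24, 8 held CCCGGG (33.3%), against 13.5% of all 32851 promoters. The motif reads the same on both strands. The Hox promoters had a median of 14.5 CpGs, against 7 for all promoters. The sequences below come, for each cluster, from the promoter with most CpGs among those with a site, and show that site in its surroundings. Capitals mark the SmaI/XmaI site. The matched HoxC promoter, of Hoxc4, did not hold these letters.
Hoxa6 (GRCm38.p6 chr6:52208758-52208843, minus strand): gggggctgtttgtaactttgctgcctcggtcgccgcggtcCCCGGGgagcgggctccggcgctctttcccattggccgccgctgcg
Hoxb1 (GRCm38.p6 chr11:96365684-96365769, plus strand): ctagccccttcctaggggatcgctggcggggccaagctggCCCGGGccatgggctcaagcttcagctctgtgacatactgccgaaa
Hoxd11 (GRCm38.p6 chr2:74682130-74682215, plus strand): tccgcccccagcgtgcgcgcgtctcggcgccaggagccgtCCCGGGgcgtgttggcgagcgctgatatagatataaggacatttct
The stretch of Hoxd11 holds 12 CpGs, that of Hoxa6 holds 11 and that of Hoxb1 holds 4. These GRCm38.p6 positions cannot be set against the mm8 positions of the intervals.

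The Hox windows were dim in both nuclei. The processed signal of an interval, averaged over its probes on the log2 scale, was ranked among all 22350 intervals with at least 2 tested probes, so that 50 is the middle of the array. Over 82 such Hox intervals the median percentile was 25.1, with 26.3 in PVH and 24.3 in ARH. By this rank, which ignores length, HoxB had the lowest median percentile, 18.5. HoxC stood at 23.4, HoxD at 25.1 and HoxA at 30.7. In each window the medians of PVH and ARH lay within a few percentiles of each other: 30.8 and 31.2 in HoxA, 17.4 and 19.7 in HoxB, 25.4 and 21.4 in HoxC, 26.2 and 24.3 in HoxD. Of the 82 intervals, 41 (50%) lay below the 25th percentile and 15 (18.3%) above the median of the array.

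**Figure D1:**
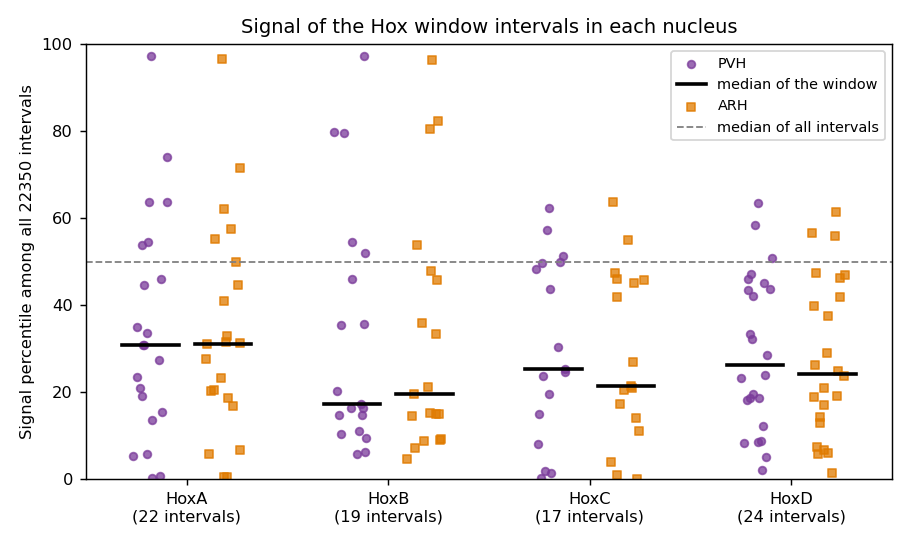
Signal percentile of each tested interval (y axis, 0 to 100 among all intervals of the array) in PVH and in ARH, by Hox window (x axis). Points are intervals averaged over the 2 arrays, and black bars are window medians, all of them between 17.4 and 31.2 and under the dashed middle of the array.

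The low rank was present on each array. The window medians on replicate 1 were 26.0 for HoxA, 18.1 for HoxB, 22.1 for HoxC and 22.2 for HoxD. On replicate 2 they were 36.1, 19.4, 26.9 and 31.9 in the same order. By ranks that ignore length, HoxB was thus lowest and HoxA highest on both arrays, while HoxC and HoxD were almost level on replicate 1. The HoxA and HoxB medians differed by 7.87 percentiles on replicate 1 and by 16.7 on replicate 2. All 6 pairs of windows kept their order of rank on both arrays, but with 2 arrays the smallest two-sided p of an exact permutation test is 0.5. That test can therefore call no difference in rank between windows or from the rest of the array, and no other test of it was run.

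The pooled Hox probes were also dimmer than the array. On replicate 1 their median processed signal was 237 for PVH and 267 for ARH, against 750 and 795 for all non-control spots. The windows had another order by this measure on replicate 1: HoxD was lowest in PVH and ARH (224 and 235), and HoxB had 241 and 242. On replicate 2 HoxB was lowest, at 241 and 263. For all Hox probes the replicate 2 median was 363 in PVH and 329 in ARH, against 982 and 897. Of the 339 Hox probes, between 85.0% (PVH, replicate 1) and 89.7% (ARH, replicate 2) were well above background, against 92.5% and 95.0% of all spots in those channels. Most Hox probes were thus measured in both nuclei, at a low level. The median signal of the 1196 negative control spots was 5.34 to 7.23.

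A probe was tested if, on each array, PVH or ARH or both were well above background there, and 294 of the 339 passed: 85 of 94 in HoxA, 64 of 76 in HoxB, 55 of 65 in HoxC and 90 of 104 in HoxD. Of the 89 intervals, 7 had fewer than 2 tested probes and were left out of the ranks and tests, namely 4 in HoxD, 2 in HoxA and 1 in HoxB. One of the 4 in HoxD, at 74456640 to 74456851, carried a single probe, with signals of 398 and 208 in PVH and 348 and 153 in ARH on replicates 1 and 2. Another, at 74548825 to 74550742, had no probe well above background in any channel (signals of 10.8 and 16.9 in PVH, 7.42 and 9.25 in ARH), so no fold is given. With no filter on probes, 88 intervals could be ranked, and their median percentile was 26.9. All probes were well above background in every channel in 60 of the 89 intervals (67.4%), against 83.4% of all intervals.

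Hox intervals were also dim for their length. Across the array, signal was highest at middle lengths: the median percentile was 37.7 for intervals of 200 to 299 bp, 73.7 for 577 to 775 bp and 15.5 for 1616 to 2000 bp. Hox intervals had a median length of 607 bp (203 to 1992 bp), against 794 bp for all. Ranked within 8 length classes, 77 of the 82 lay below the median of their class and 47 below its 25th percentile. The median percentile within length classes was 17.8 in HoxA, 18.5 in HoxB, 27.3 in HoxC and 15.01 in HoxD, so that the order of the windows changed, with HoxD lowest and HoxC highest. At 577 to 775 bp, where the array was brightest, the 13 Hox intervals had a median percentile of 51.8.

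**Figure D2:**
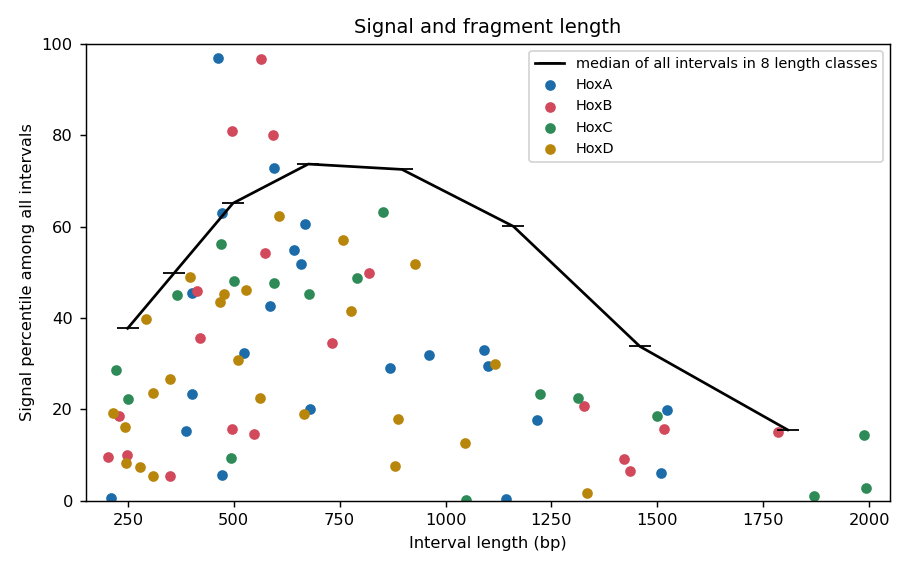
Signal percentile over both nuclei (y axis) against interval length in bp (x axis) for the 82 tested Hox intervals, coloured by window. The black line joins the medians of all intervals in 8 length classes, and 77 of the 82 points rank below the median of their own class.

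The 4 windows differed in how their intervals were spaced. HoxA held 6 intervals per 100 kb, HoxD 4.67, HoxB 3.33 and HoxC 2.83. An interval that touches the next one shares a restriction site with it. Of the 89, 46 touched another (51.7%, against 40.7% of all intervals): 15 in HoxA, 8 in HoxB, 6 in HoxC and 17 in HoxD. They formed 17 runs of up to 4 intervals. The median percentile of the 41 tested touching intervals was 29.9, and none reached the 75th. Over the array the 9206 touching intervals had a median of 47.5, and 22.6% passed the 75th. The 46 made 29 touching pairs. In 22 of them both intervals were tested, and their median difference in log2 signal was 0.93, with 2 pairs (9.09%) over 2 apart. Over the array, the 5107 such pairs had a median difference of 1.66, and 43.0% were over 2 apart. The 7 others each hold an interval with fewer than 2 tested probes. Over all probes and all 29 pairs, an alternative chosen after seeing the data, the median difference was 1.07 and 6 pairs (20.7%) were over 2 apart, against 1.84 and 47.1% for the 5608 touching pairs of the array. Of those 6 pairs, 5 were in HoxA and 1 in HoxD.

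**Figure D3:**
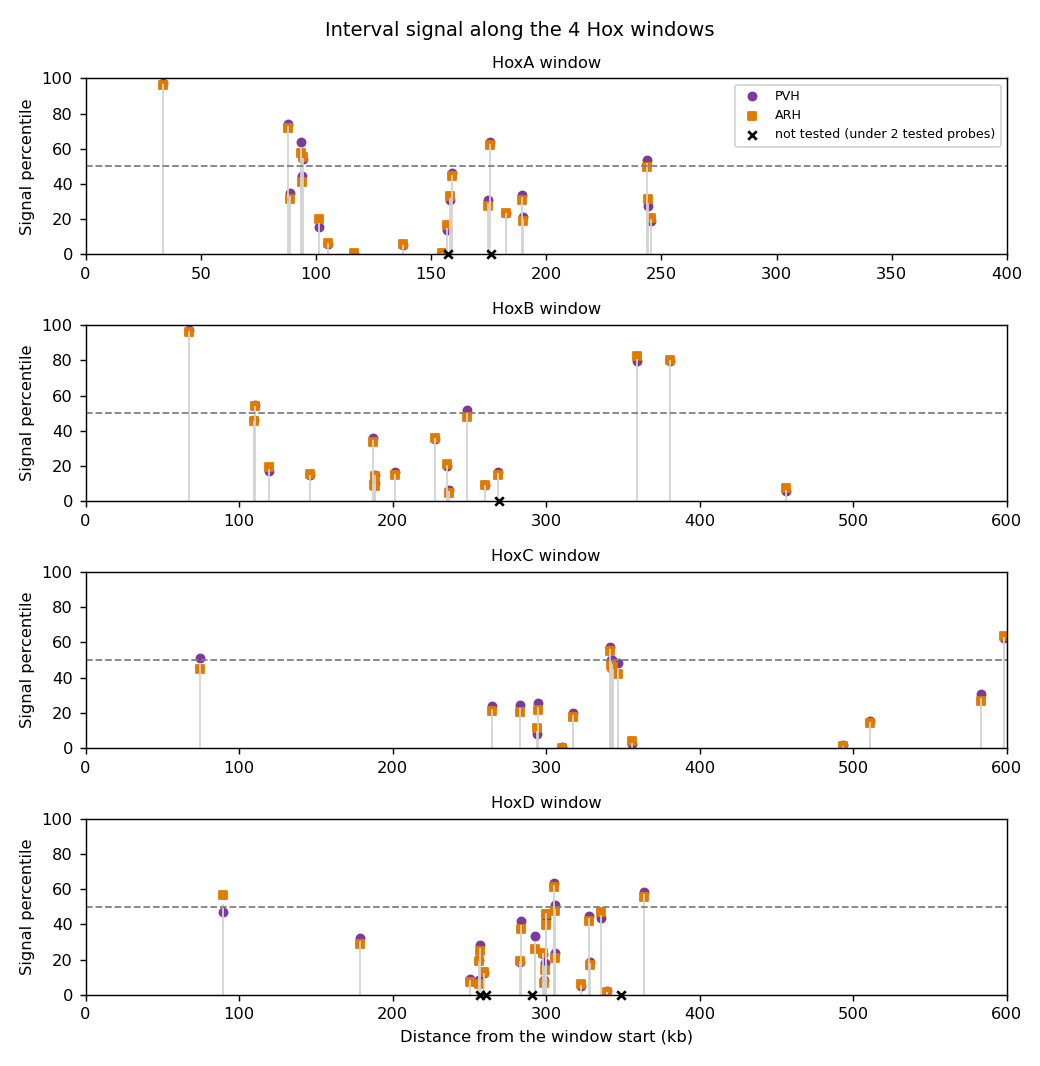
Signal percentile in PVH and ARH (y axis) against the distance of each interval's start from the window start in kb (x axis), 1 panel per window. Crosses mark the 7 intervals with fewer than 2 tested probes; averaged over both nuclei, the 4 intervals above percentile 75 touch no other, and tested touching intervals reach 72.9 at most.

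Only 4 of the 82 intervals passed the 75th percentile of the array, 1 in HoxA and 3 in HoxB, and each of the 4 stood alone, touching no other. In HoxA it was the interval at 52033481 to 52033942 (462 bp), the first of the window, at percentile 97.0. Replicate 1 read 35833 in PVH and 23158 in ARH, and replicate 2 read 22837 and 27950. The sign of the difference thus turned between arrays, with log2 ratios of PVH over ARH of 0.62 and -0.30. In the brightest of 20 signal classes of the whole array, the median ratios were 0.44 and -0.38.

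The first interval of the HoxB window, at 95967582 to 95968145 (564 bp), was almost its equal. On replicate 1 it gave 36105 for PVH and 22997 for ARH, and on replicate 2 it gave 21866 and 27100, at percentile 96.8. Its ratios of 0.64 and -0.32 also had opposite signs. The other bright HoxB intervals were at 96259265 to 96259761 (percentile 80.9) and 96280604 to 96281196 (percentile 80.1). The former had a PVH signal of 6161 and 6079 and an ARH signal of 6792 and 8970 on replicates 1 and 2. The latter had 5876 and 6572 in PVH and 6309 and 7210 in ARH. In both, ARH was the brighter nucleus on each array.

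The rest of HoxB was at percentile 54.2 or below. Its 3 dimmest tested intervals were at 96136502 to 96136850 (percentile 5.53), 96356468 to 96357902 (6.49) and 96160324 to 96161744 (9.22). Over tested probes the first had signals of 102 and 95.9 in PVH and 84.9 and 91.9 in ARH on replicates 1 and 2. Of its 3 probes, 2 were tested, and of the 4 probes of each of the other 2 intervals, 3 were.

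Within HoxA the brightest intervals after the first were at 52088089 to 52088684 (percentile 72.9) and 52175688 to 52176159 (62.9). The former had a PVH signal of 2410 and 5952 and an ARH signal of 2383 and 4246 on replicates 1 and 2. The 3 dimmest tested intervals followed one another along the window. The interval at 52116727 to 52117868 was at percentile 0.340, with 0 of 4 probes well above background in PVH on replicate 1 but 4 of 4 on replicate 2. Its signals over 3 tested probes were 22.4 and 61.5 in PVH and 41.2 and 57.3 in ARH. The next, at 52137911 to 52138383, was at percentile 5.59 and the one at 52154707 to 52154917 at 0.622. All 3 lay 116.7 to 154.7 kb from the window's start.

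HoxC had no interval above percentile 63.2. That maximum was at 103098427 to 103099279, the last of the window. Its PVH signal was 1375 and 1916 and its ARH signal 1742 and 1870 on replicates 1 and 2. The crowded part of HoxC was a run of 4 touching intervals from 102841849 to 102844069. Its first interval, to 102842317, stood at percentile 56.2 and the second, to 102843107, at 48.7. The dimmest HoxC interval was at 102810125 to 102811172, with percentile 0.143 and signals over 2 tested probes of 30.4 and 50.6 in PVH and 30.6 and 42.7 in ARH. Near it in rank were the long intervals at 102993573 to 102995443 (1871 bp, percentile 1.11) and 102855941 to 102857932 (1992 bp, percentile 2.87).

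HoxD peaked at percentile 62.5, in the interval at 74504986 to 74505592. PVH gave 1028 and ARH 1134 on replicate 1, and 2931 and 2154 on replicate 2. The last interval of HoxD, at 74563536 to 74564293, followed at 57.1. The dimmest tested intervals were at 74539721 to 74541053 (percentile 1.71), 74522654 to 74522963 (5.49) and 74456361 to 74456639 (7.29). The last of these gave 128 and 108 in PVH and 103 and 96.5 in ARH, so that both nuclei were close to each other near the bottom of the scale.

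Probes of 1 fragment often disagreed in level. The gap between the brightest and the dimmest probe of a Hox interval had a median of 2.21 on the log2 scale, against 1.83 over all intervals, and it was over 2 in 50 of the 89. It was largest, at 6.33, in the HoxC interval at 102817203 to 102818702. In the HoxD interval at 74491039 to 74492535 it was 4.95. There, 3 of 4 probes failed the filter, with signals of 5.30 to 34.2, and the probe at 74492192 to 74492236 read 270 and 162 in PVH and 174 and 236 in ARH. A level of such an interval rests on the probes that were tested.

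PVH and ARH differed past the threshold at no Hox interval. The ratio was tested with limma on all 22350 intervals, with the sign of the dye-swapped array turned and Benjamini-Hochberg adjustment over all of them. Across the array 1.39% of intervals passed at an adjusted p under 0.05, and in the Hox windows 0 of 82 did. Lower in PVH were 0.944% of all intervals and higher 0.447%, and 0 Hox intervals in either direction. At an unadjusted p under 0.05 there was 1 Hox interval, against 6.18% of all. The standard error was 0.26 (log2) for every interval, the smallest mean ratio that passed anywhere was 0.87 in absolute value, and the largest among Hox intervals was 0.67. With this processing and 2 arrays, no mean ratio under 0.87 in absolute value passed.

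**Figure D4:**
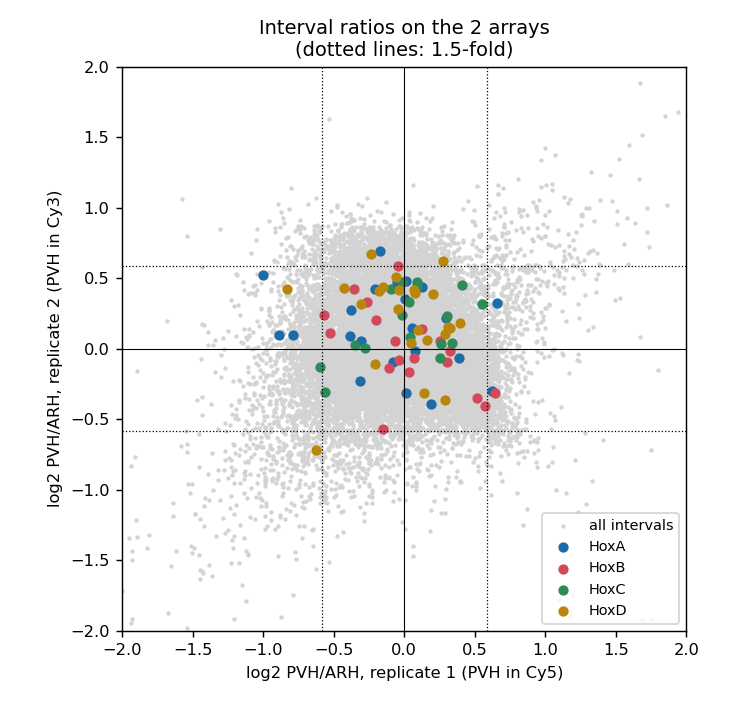
Log2 ratio of PVH over ARH on replicate 1 (x axis) and replicate 2 (y axis), with the 82 Hox intervals coloured by window over all 22350 intervals in grey. The axes end at 2, which leaves out 22 grey points; 1 Hox interval lies past the dotted 1.5-fold lines in the same direction on both arrays.

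That interval was the first of the HoxD window, on chromosome 2 at 74289498 to 74290425 (928 bp), at percentile 51.8. Replicate 1 gave 660 for PVH against 1014 for ARH, and replicate 2 gave 828 against 1358. The log2 ratios were -0.63 and -0.72, with a mean of -0.67 ± 0.07 (SD, n = 2 arrays), which is 1.59-fold lower in PVH. The interval had an adjusted p of 0.28 in limma, which rests on the standard error common to all intervals, not on this SD. All 4 of its probes were lower in PVH on both arrays, with log2 ratios of -0.91 to -0.38 (replicate 1) and -0.85 to -0.48 (replicate 2). It stood 88.6 kb from the next interval of the window. At 1.5-fold on both arrays, 1.61% of all intervals were lower in PVH and 0.689% higher, and in the Hox windows 1 was lower and 0 higher. It was also the 1 Hox interval with a mean past 0.58 in either direction, against 4.27% of all. The submitters call the 2 arrays biological replicates, and the sources used here do not say which animals went into which pool.

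Among the higher ratios, the HoxA interval at 52093377 to 52094045 was at 0.66 and 0.32 on replicates 1 and 2 (mean 0.49 ± 0.24, adjusted p = 0.85 in limma). Its signals were 1574 in PVH against 991 in ARH, and 1967 against 1568. In HoxD the interval at 74492536 to 74493652 was at 0.28 and 0.62. It had 261 in PVH against 214 in ARH on replicate 1, and 652 against 421 on replicate 2. HoxC held the intervals at 102574626 to 102575125 (0.41 and 0.45) and 102846539 to 102847215 (0.55 and 0.31). The former read 677 and 1216 in PVH and 507 and 886 in ARH. In these 4 intervals PVH was brighter on both arrays, and none passed the test, with an adjusted p of 0.85 or more.

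The other intervals named for a positive ratio of like sign were smaller. They were in HoxA at 52094046 to 52094630 (mean 0.26) and 52243704 to 52244361 (0.28), in HoxC at 102843108 to 102843702 (0.28), and in HoxD at 74483679 to 74483971 (0.29) and 74499290 to 74499533 (0.29). HoxB reached only 0.15 at 96136502 to 96136850 and 0.14 at 96087958 to 96088206 among intervals of like sign on both arrays.

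On the lower side, HoxC had the interval at 102855941 to 102857932 at -0.56 and -0.31. These ratios rested on 2 tested probes of 4, and with no filter on probes they were -0.16 and -9.5e-05. Another HoxC interval, at 102794056 to 102794549, was at -0.60 and -0.13, with 86.9 and 145 in PVH and 131 and 159 in ARH. In HoxB the bright interval at 96259265 was at -0.15 and -0.57, the one at 96280604 at -0.11 and -0.14, and the one at 96046503 to 96048288 at -0.04 and -0.08. HoxA had 52157153 to 52157540 at -0.31 and -0.23 and 52154707 to 52154917 at -0.08 and -0.09. Those were the only HoxA intervals below 0 on both arrays, and HoxD had, beside its first interval, the one at 74522654 to 74522963 at -0.21 and -0.11. The means of these intervals other than the first of HoxD ran from -0.44 to -0.06, against a standard error of 0.26, and none passed the test.

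By window, the median log2 ratio was 0.06 in HoxA, 0.04 in HoxB, 0.16 in HoxC and 0.13 in HoxD, against 0.01 over all intervals. In the reported processing, with no loess, the arrays did not contribute equally. On replicate 1 the window medians were -0.02, -0.04, 0.04 and 0.06 in that order, and on replicate 2 they were 0.12, -0.01, 0.23 and 0.30, while the array's own medians were -0.02 and -0.01. The SD of the 2 array values was 0.10 in HoxA, 0.02 in HoxB, 0.14 in HoxC and 0.17 in HoxD, so the medians of HoxA and HoxD were smaller than their spread. In HoxB both array medians were below 0 while the median of the interval means was above it. HoxB and HoxD differed by 0.09 on replicate 1 and by 0.31 on replicate 2, with HoxD higher. As for rank, the exact permutation test allows no p under 0.5 here, and no other test of windows was run.

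The sign was the same on both arrays in 37 of 82 Hox intervals, against 48.9% of all. PVH was above ARH on replicate 1 in 43 of 82 intervals (52.4%, against 48.2% of all), and on replicate 2 in 58 (70.7%, against 48.7%). Those 58 were 15 of 22 in HoxA, 9 of 19 in HoxB, 14 of 17 in HoxC and 20 of 24 in HoxD. On both arrays, 28 Hox intervals (34.1%) were above 0 and 9 (10.98%) below, against 22.9% and 26% of all intervals. HoxC with 9 and HoxD with 11 held most of the 28. Opposite signs were found in 45 (54.9%, against 51.1% of all), of which 14 each were in HoxA and HoxB. Intervals of 1 window share a neighbourhood, and those that touch share a site. They are thus not independent, so these are counts with no test.

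Signal level moved with the ratio over the whole array. In the middle of the signal range the median ratio of all intervals was negative on replicate 1 and positive on replicate 2, and in the brightest class the signs were the other way round. The Hox intervals lay mostly in the lower and middle part, where the array's own class medians for them were, at the median, -0.03 on replicate 1 and 0.07 on replicate 2. Set against the class of 20 to which each belonged, the Hox intervals were still 0.05 higher on replicate 1 and 0.13 higher on replicate 2 at the median. HoxD was at 0.10 and 0.24 and HoxC at 0.08 and 0.16 by this measure, and HoxB at 0.01 and 0.06. The part of dye and of signal level in what remained was not tested.

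**Figure D5:**
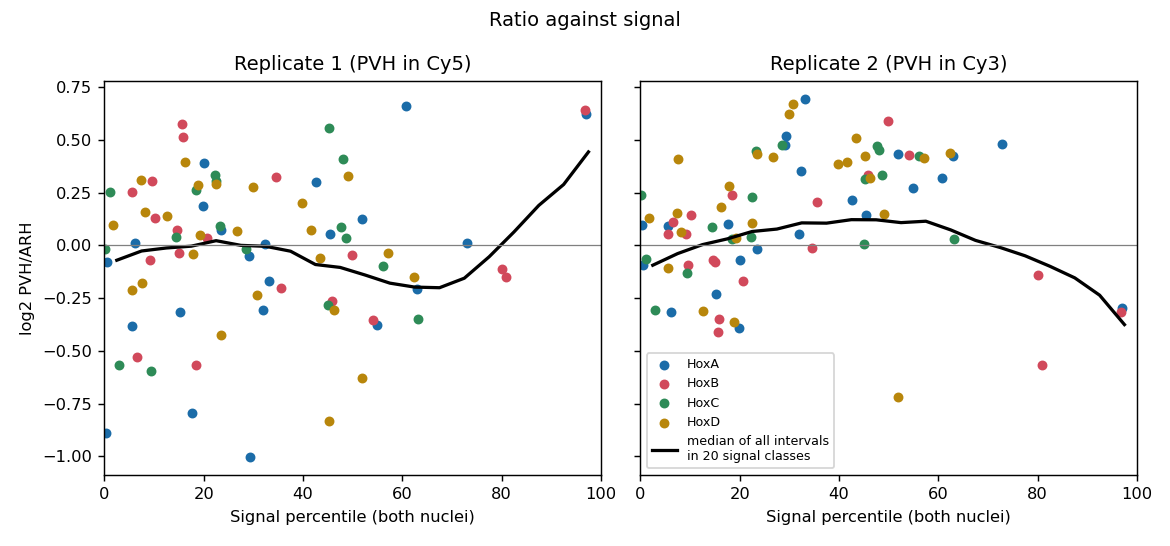
Log2 ratio of PVH over ARH (y axis) against signal percentile (x axis) on each array for the 82 Hox intervals, coloured by window. The black line gives the median of all intervals in 20 signal classes. On replicate 2 it is above 0 in the middle of the range. On that array 58 of the 82 Hox intervals (70.7%) are above 0, against 48.7% of all intervals.

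On replicate 1, 9 Hox intervals were at least 1.5-fold apart (11.6% of all intervals were), 5 of them in HoxA. The HoxA interval at 52244362 to 52245462 (1101 bp) was at -1.003 on replicate 1 and 0.52 on replicate 2. The HoxA intervals at 52101266 to 52102482 (1217 bp) and 52116727 to 52117868 (1142 bp) were at -0.79 and -0.89 on replicate 1 and at 0.10 each on replicate 2. These 3 have lengths in the class of 1019 to 1302 bp, whose median over all intervals was -0.17 on replicate 1 and -0.04 on replicate 2. The other tested Hox intervals of that class ran from -0.17 to 0.28 on replicate 1, and the part of length was not tested. On replicate 2, 5 Hox intervals were at least 1.5-fold apart, against 10.4% of all. None was so in opposite directions on the 2 arrays, against 0.953% of all intervals.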

How the data were processed

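Genomic DNA (500 ng) was digested and amplified, and 2 µg of each product was hybridized, per the labels. Both scanner files were used. The authors deposited linear intensities from Agilent Feature Extraction 10.5.1.1 with design 017202 on mm8, per the file headers, while the submitters' processing notes name 9.1.3.1. Per the file headers, processing of an intensity included background subtraction, spatial and multiplicative detrending and a linear dye factor. The deposited LogRatio, a log10 of red over green, equalled the ratio of processed signals within 0.001 for 98.7% and 98.8% of spots. The deposited table gives a log2 ratio per interval of 200 to 2000 bp, with its centring not given in the sources used here. It followed the scanner ratios with r = 0.965 and 0.980.

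Log2 ratios of PVH over ARH were centred on the median of tested probes (0.0072 and 0.0061 before), with no loess. Controls, 79 outlier spots and probes with neither channel well above background on an array were left out, leaving 84708 probes. Probe values were averaged per interval, with at least 2 tested probes, and fitted with limma 3.58.1 in R 4.3.3 (lmFit, eBayes, 1 residual degree of freedom). The prior degrees of freedom were estimated as infinite, so a pooled standard error served every interval. An interval's own spread between arrays did not enter its p. No spot was saturated. The test was tried on simulated data. Normexp, planned on mean signals, used the median signals that the files hold, with an offset of 50. The number of arrays, 2, limits the precision, which also depended on the processing. The median standard error was 0.26 as reported and 0.16 with normexp followed by loess.

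Members, gene list and tests were chosen with earlier results of these data known. Intervals were named by rule, per window: the 3 most negative and 3 most positive ratios of like sign on both arrays, and the 3 brightest and 3 dimmest. Other intervals named, those with fewer than 2 tested probes or with a large ratio on 1 array, were chosen after their values were seen. Promoter matching to intervals was planned but needs probe sequences and was not run.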

Additional observations from a re-analysis of the deposited data

How the results depend on the processing

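Each array's ratio already sets a PVH pool against an ARH pool, so the test was paired by array, and no further block could be fitted. The count of Hox intervals that passed in limma was 0 under all 12 alternatives, in which 0.166% to 3.03% of all intervals passed. At an unadjusted p under 0.05 there were 1 to 6 Hox intervals, against 6.18% of all in the reported processing. The lowest adjusted p was 0.062, for the HoxD interval at 74289498 under normexp followed by loess. The highest was 0.45 for it, under normexp without loess. Its ratio ran from -0.69 to -0.58. Of the 82 Hox intervals, 43 were above 0 on replicate 1 and 58 on replicate 2 as reported, against 48.2% and 48.7% of all intervals. With loess on the processed signals these counts were 53 and 54, and with normexp followed by loess they were 51 and 49. The median Hox ratios on replicates 1 and 2 were 0.09 and 0.10 in the former setting and 0.09 and 0.05 in the latter. Over all intervals those medians were -0.010 and -0.006 in the former and 0.005 and -0.009 in the latter. The number of Hox intervals above 0 on both arrays was 28 as reported (34.1%, against 22.9% of all intervals). It rose to 37 (45.1%) under normexp without loess and to 35 (42.7%) when processed signals were loess-corrected. After the length trend was removed it was 22 (26.8%). In the same order, 25.1%, 26.8% and 21.7% of all intervals were above 0 on both arrays. With the length trend removed, 12 Hox intervals (14.6%) were below 0 on both arrays, against 22.4% of all.

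Of 52 alternative window medians of the ratio, 48 moved by less than the SD of the arrays. The 4 that moved further were all in HoxB, where that SD was smallest (0.02). The SD comes from the same 2 arrays, so a wide one, as in HoxD (0.17), was a loose limit. Leaving out 1 array is also not independent of it. The HoxB median of 0.035 was 0.062 in the deposited table and 0.0014 with at least 3 probes, and from -0.037 to -0.015 with 1 array left out. Leaving out 1 array gave -0.02 to 0.12 in HoxA, 0.04 to 0.23 in HoxC and 0.06 to 0.30 in HoxD. Of 28 alternative percentiles, 19 moved by less than the SD of the arrays. This limit was again set by the same 2 arrays, and ran from 0.88 in HoxB to 7.12 in HoxA. HoxB's 18.5 was 19.6 with normexp alone, 15.7 with only probes well above background in all channels and 17.2 with the median over probes. HoxC's 23.4 was 27.8 with no filter, 32.4 with the median over probes, 27.3 within length classes and 22.1 to 26.9 with 1 array left out. Within length classes HoxA was at 17.8 and HoxD at 15.01, so that HoxB was no longer lowest. Each stayed under 50.

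Of 236 alternative ratios of named intervals, 6 changed sign, none of them past the threshold. The HoxA interval at 52154707 went to 0.048 with normexp alone. The HoxB interval at 96046503 went to 0.039 with normexp alone, 0.00025 with normexp and loess, 0.074 in the deposited table, 0.033 with no filter and 0.057 with the length trend removed. The cause was not tested. Signal near background limits 29 Hox intervals, in which at least 1 probe was not well above it in a channel.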

Other observations

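The 6 Hox window probes that crossed an interval's end, and so span a restriction site, were all tested as single probes. Their processed signals ran from 194 to 3402. Log2 ratios of PVH over ARH were -0.03 to 0.37 on replicate 1 and -0.03 to 0.60 on replicate 2, and 3 of the 6 were above 0 on both arrays.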
